A study of Mus musculus with 8 samples.

Results

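The Bach1 and Nrf2 regulatory circuit is described here through 10 genes chosen by name: the repressor Bach1, the activator Nfe2l2 (which encodes Nrf2), the Nrf2 inhibitor Keap1, and 7 targets, Hmox1, Nqo1, Gclm, Gclc, Txnrd1, Srxn1 and Fth1. The count table held 19493 endogenous genes, of which 16470 passed the filter on low counts, and all 10 genes of the circuit were among them. Mouse embryonic fibroblasts (MEFs) were profiled by RNA sequencing to ask how gene expression differs between wild-type (WT) cells and Dp1Tyb cells, a mouse model of Down syndrome. There were 4 WT and 4 Dp1Tyb libraries. Synthetic ERCC RNAs were added in a fixed amount to a fixed number of cells, so that RNA could be scaled to cells as well as to total RNA.

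Both groups were MEFs from E14.5 embryos. The labels give the strain background as C57BL/6J.129P2, and the study's methods add that the mice had been backcrossed to C57BL/6JNimr. Dp1Tyb cells carried the allele Dp(16Lipi-Zbtb21)1TybEmcf, a duplication on chromosome 16 that includes Bach1, so that they had 3 copies of Bach1 where WT cells had 2. The other 9 genes lie outside the duplication, and the labels give no further allele or treatment that distinguished the groups. The culture medium of both groups contained 2-mercaptoethanol, a thiol reductant. MEFs are a mixed culture of cells that were grown, passaged and harvested as a whole. The labels do not state which libraries came from separate embryos, so p-values measure the spread between these libraries.

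Bach1 and Nrf2 are basic leucine zipper proteins that pair with small Maf proteins and bind the same kind of DNA element, the antioxidant response element or Maf recognition element. Bach1 represses genes that carry the element, and heme binds Bach1, releases it from DNA and promotes its degradation. Keap1 is the adaptor through which the Cul3 ubiquitin ligase degrades Nrf2, and oxidants and electrophiles modify cysteines of Keap1 so that Nrf2 accumulates. The shared targets break down heme, store iron, make glutathione and reduce thioredoxin and peroxiredoxins. Much of this regulation acts on the proteins, which RNA counts do not measure.

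The DNA element links the regulators to their targets, so the starts of the genes were searched for it. RefSeq windows of assembly GRCm38.p6, from 250 bases before to 50 bases after a transcription start, were given for 8 of the 10 genes, without Hmox1 and Gclc, and made up 11 windows. The motifs searched on both strands were TGACNNNGC, TGAGNNNGC and TGANTCA. The last of these can overlap the second. They occurred in 12.4%, 17.6% and 7.81% of 32851 windows of 300 bases over all genes, and at least 1 of them in 33.1%. Among the windows of the circuit, 4 held a match, those of Srxn1, Nfe2l2, Gclm and the second of the windows of Txnrd1, and 7 held none of these letters. The Srxn1 window, which held the most matches, is printed whole, and the other matches are shown with their flanks. Each sequence runs 5′ to 3′ on the strand of the gene, and capitals mark a match on either strand.
Srxn1, chr2:152105274-152105573, plus strand: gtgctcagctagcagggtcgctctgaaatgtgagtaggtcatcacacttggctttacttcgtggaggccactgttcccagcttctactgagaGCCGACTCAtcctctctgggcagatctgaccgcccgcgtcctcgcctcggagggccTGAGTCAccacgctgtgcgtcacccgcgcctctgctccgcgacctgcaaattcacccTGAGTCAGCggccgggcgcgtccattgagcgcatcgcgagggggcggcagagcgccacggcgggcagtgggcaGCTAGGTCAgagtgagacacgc
Nfe2l2, chr2:75704879-75704913, minus strand: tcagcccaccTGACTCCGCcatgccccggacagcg
Gclm, chr3:122245407-122245447, plus strand: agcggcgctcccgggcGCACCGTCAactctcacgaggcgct
Txnrd1, chr10:82859098-82859138, plus strand: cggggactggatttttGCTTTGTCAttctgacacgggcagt

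Counting the transcription start as 1 and the base before it as -1, the Srxn1 window had 5 matches, which began at -158, -102, -45 and 29. At -45 TGAGTCAGC holds 2 of the motifs, 1 inside the other. The match of Nfe2l2 began at -240, that of Gclm at -134 and that of Txnrd1 at -92. Bach1, Keap1, Nqo1 and Fth1 had no match in these windows. A match is a run of letters, and binding was not measured here.

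Total counts were between 17698900 and 26471758 per library, and spike-ins took 0.882% to 1.65% of them. Counts of each gene were normalised in 2 ways, relative to the endogenous genes and to the spike-ins. The lowest raw count of a gene of the circuit in any library was 242, for Nqo1, and the highest was 16371, for Fth1. RNA per spike-in differed between libraries of the same genotype, from 0.717 to 1.18 in WT and from 0.690 to 1.31 in Dp1Tyb as a ratio to the geometric mean. The spread of the spike-in scaled counts was wider, with a biological coefficient of variation of 0.351 against 0.232. The median log2 fold change over all tested genes was 0.0045 with relative and 0.11 with spike-in scaling, so spike-in values are read against that shift. Of the 8 fibroblast markers fixed for the check of the cell type all were expressed. Their summed level was 8978 to 18123 CPM, counts scaled to a common library size, in WT and 10039 to 17036 in Dp1Tyb.

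Bach1 was the gene of the circuit with the lowest p value and the largest difference between genotypes. It was 1.46-fold the WT level in Dp1Tyb MEFs with relative scaling (95% interval 1.23 to 1.73), close to the ratio of gene copies. Bach1 (ENSMUSG00000025612) lies at chr16:87698945-87733346 on the plus strand of GRCm38, the build of all gene positions here. Its relative normalised counts in WT replicates 1 to 4 were 2282, 2818, 2973 and 2904, and in Dp1Tyb replicates 1 to 4 they were 3602.5, 4093, 4219.6 and 4132. Every Dp1Tyb library was above every WT library, with the lowest WT value in replicate 1 and the other WT values within a narrow range. The means were 2744 ± 314 in WT and 4012 ± 278 in Dp1Tyb (SD over 4 libraries each).

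On the log2 scale the fold change of Bach1 was 0.55 (SE 0.11), and its unadjusted p of 0.0005434 ranked 28th of 16470 genes. Under edgeR's quasi-likelihood test with Benjamini-Hochberg adjustment over all tested genes the adjusted p was 0.3157, and Bach1 did not pass the threshold of 0.05. That test called 4 genes, or 0.0243% of those tested. DESeq2 on the same counts gave a log2 fold change of 0.55 (SE 0.13) and an adjusted p of 0.01262, within a range of 0.01262 to 1.0 over all alternatives with relative scaling, and it called 53 of 16466 genes, or 0.322%. Bach1 was the only one of the 10 genes that DESeq2 called with relative scaling. With spike-in scaling it called none of them (adjusted p = 0.9996 for Bach1), and edgeR called none with either.

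On spike-in scaling the Bach1 counts were 2693, 2489, 2130.3 and 3388 in WT and 4343, 2824, 4439 and 5421 in Dp1Tyb. Here 3 of 4 Dp1Tyb libraries were above every WT library, and the exception, Dp1Tyb replicate 2, was the library with the least RNA per spike-in. By edgeR, Bach1 had a log2 fold change of 0.67 here (SE 0.32, 95% interval 0.05 to 1.29, unadjusted p = 0.03428, adjusted p = 0.9998). With this scaling edgeR called 2 genes, or 0.0121%, and 1.17% of genes had an unadjusted p under 0.05.

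The extra copy of the gene sets a reference fold change of 1.5, and a test of Bach1 against a fold change of 1.5 was made. With spike-in scaling the log2 difference from it was 0.09 (SE 0.32, unadjusted p = 0.787 by edgeR), and with relative scaling it was -0.04 (SE 0.11, unadjusted p = 0.7392). The sign depended on the scaling, and both differences were smaller than their SE. Among the 112 tested genes of the duplicated region, which have a median log2 fold change of 0.54, Bach1 ranked 56th by log2 fold change with relative scaling. With spike-in scaling it ranked 53rd, and the median was 0.64.

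The genes next to Bach1 on chromosome 16 were measured in the same libraries. All 8 tested duplicated neighbours were higher in Dp1Tyb, with a median log2 fold change of 0.60 with relative and 0.72 with spike-in scaling. With relative scaling 7 of them had no overlap between groups, where all Dp1Tyb libraries were above all WT libraries for 1.65% of tested genes, and the same number had an unadjusted p under 0.05, beside 4.25%. With spike-in scaling 0 of the 8 had separate groups, beside 0.285%, and 6 had an unadjusted p under 0.05, beside 1.17%. Of the 112 tested genes of the whole duplicated region, 47, Bach1 among them, had all Dp1Tyb libraries above all WT libraries with relative scaling. With spike-in scaling 16 of the 112 did. The values below are with relative scaling. Cct8, a subunit of the chaperonin that folds actin and tubulin, had a mean of 6839 normalised counts in WT and 11333 in Dp1Tyb (log2 fold change 0.73, SE 0.14). Ltn1, a ubiquitin ligase of ribosome quality control, had a log2 fold change of 0.58 (SE 0.10), N6amt1, a methyltransferase, of 0.61 (SE 0.11), and Rwdd2b of 0.87 (SE 0.14). DESeq2 called these 4 genes, and edgeR called none of the 8. Usp16, a histone H2A deubiquitinase, had a log2 fold change of 0.59 (SE 0.15), and Tiam1, an exchange factor for Rac, of 0.42 (SE 0.11). Grik1, a glutamate receptor subunit with a mean of 31.3 counts in WT, had a value of 1.19 (SE 0.32). Map3k7cl was the exception that overlapped, at 0.59 (SE 0.40) and 26.8 counts.

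**Figure D1:**
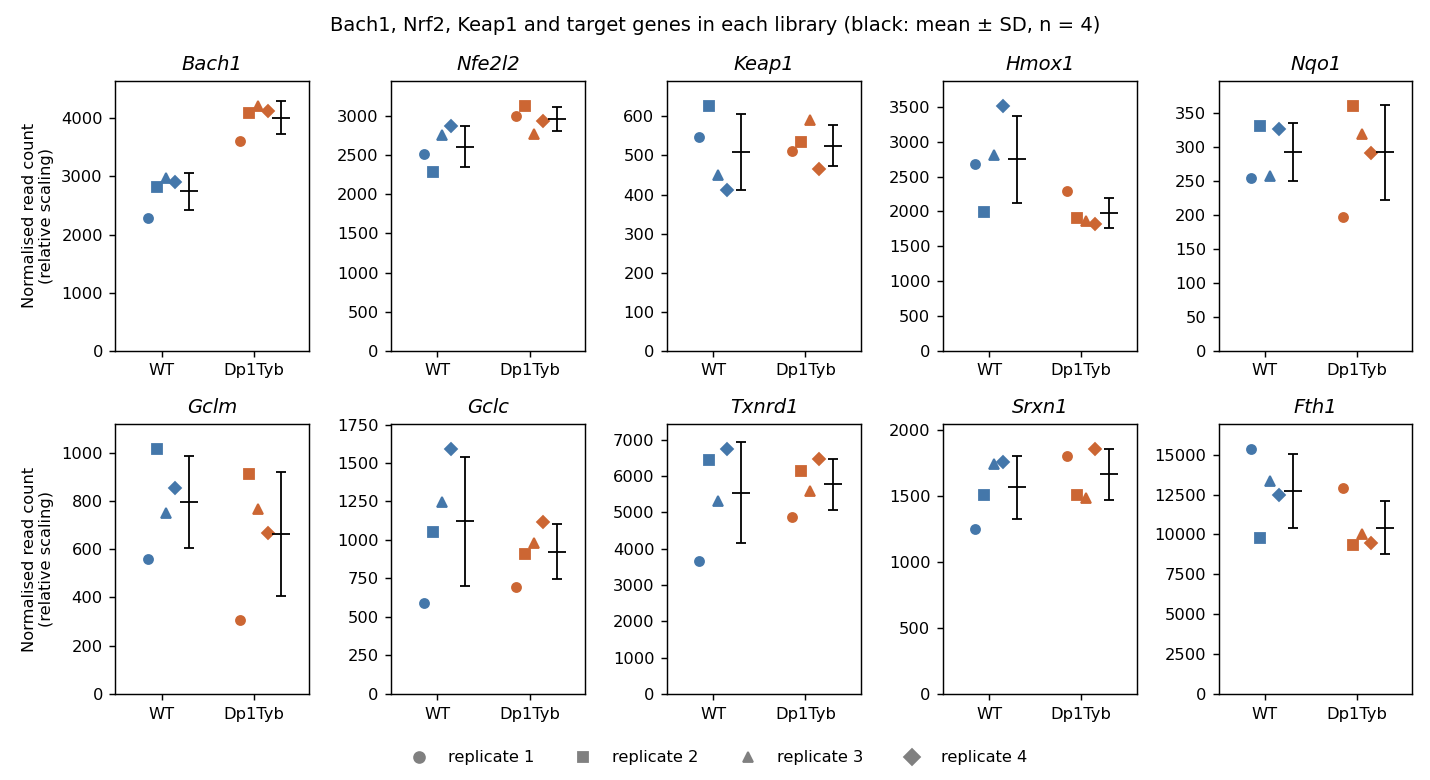
Normalised counts of the 10 genes with relative scaling (vertical axes, from 0) in the 4 WT (blue) and 4 Dp1Tyb (orange) libraries, with a marker shape for each replicate number and black bars for mean ± SD. Bach1 is the gene whose groups do not overlap, and 3 of 4 Dp1Tyb libraries lie below every WT library for Hmox1.

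Counted over the circuit, 2 of 10 genes had an unadjusted p under 0.05 with relative scaling, Bach1, higher in Dp1Tyb, and Hmox1, lower. Over all tested genes the share was 4.25%. With spike-in scaling it was Bach1 alone. Its p by edgeR with that scaling was above 0.05 without WT replicate 1, 2 or 3, and without Dp1Tyb replicate 1, 3 or 4 (up to 0.1188). Bach1 was also the gene with no overlap between groups with relative scaling, where all Dp1Tyb libraries exceeded all WT libraries for 1.65% of tested genes and lay below them for 1.52%. With spike-in scaling no gene of the 10 had separate groups, and the shares over all genes were 0.285% and 0.14%. The median log2 fold change of the 10 genes was 0.02 with relative scaling and that of the 7 targets was -0.26, with 2 higher and 5 lower. With spike-in scaling the medians were 0.10 and -0.15, and 3 of the targets were higher and 4 lower. The adjusted p by edgeR was 0.9988 for each gene but Bach1 with relative scaling, and 0.9998 for all 10 with spike-in scaling.

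**Figure D2:**
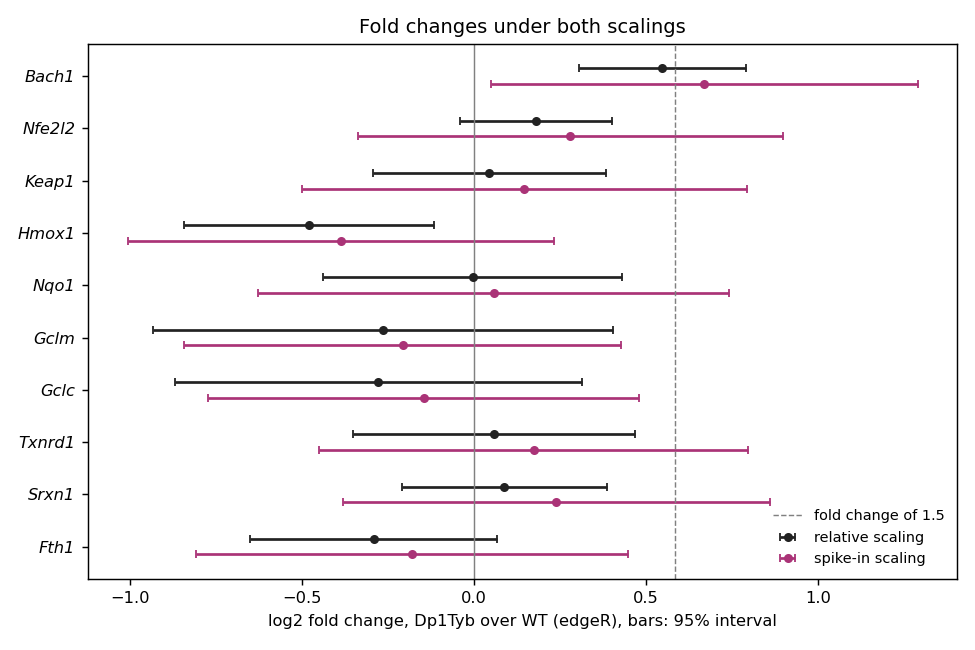
Log2 fold change of each of the 10 genes (horizontal axis), Dp1Tyb against WT, with relative (black) and spike-in (purple) scaling, as edgeR estimates with 95% intervals and a dashed line at a fold change of 1.5. The interval of Bach1 lies above 0 under both scalings, and that of Hmox1 lies below 0 with relative scaling only.

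Nrf2 and its inhibitor had smaller differences than Bach1. Nfe2l2 (chr2:75675513-75704641, minus strand) had 2511, 2291, 2764 and 2877 relative normalised counts in WT and 2999, 3135, 2769 and 2931 in Dp1Tyb. All Dp1Tyb libraries lay above the WT mean and 3 of them above every WT library, but Dp1Tyb replicate 3 fell within the WT range. The means were 2611 ± 263 and 2959 ± 152 (SD, n = 4), with a log2 fold change of 0.18 (SE 0.10, 95% interval -0.04 to 0.40) and an unadjusted p of 0.09947. With spike-in scaling it was 0.28 (SE 0.32).

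Keap1 (chr9:21229730-21239361, minus strand) had 546, 628, 450.2 and 411 counts in WT and 511, 533, 591 and 465 in Dp1Tyb. The Dp1Tyb values were all inside the WT range. The estimated log2 fold change was 0.04 (SE 0.15, 95% interval -0.29 to 0.38) with relative scaling and 0.15 (SE 0.33) with spike-in scaling. Keap1 shares 510 bases of exon with the antisense gene Gm16754, which had a mean count of 18.1, and the sources used here do not say whether reads were counted by strand.

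Hmox1 encodes the inducible heme oxygenase, which cleaves heme to biliverdin, iron and carbon monoxide, and it is the best known target of repression by Bach1. It was lower in Dp1Tyb with relative scaling, at 0.718 of the WT level, and did not pass the adjusted threshold. Hmox1 (chr8:75093621-75100589, plus strand) had 2682, 1994, 2804 and 3521 normalised counts in WT and 2295, 1903, 1869 and 1825 in Dp1Tyb. The Dp1Tyb values were close together except for replicate 1, which was above the lowest WT library, replicate 2. The other 3 were below every WT library. The means were 2750.0 ± 625 and 1973 ± 217 (SD, n = 4).

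By edgeR, Hmox1 had a log2 fold change of -0.48 (SE 0.16, 95% interval -0.84 to -0.12). Its unadjusted p was 0.01487, which ranked 209th, and its adjusted p was 0.9988. DESeq2 gave an adjusted p of 0.7991, and over all alternatives the adjusted p ranged from 0.4108 to 1.0 and the log2 fold change from -0.61 to -0.34. With spike-in scaling the estimate was -0.39 (SE 0.32, unadjusted p = 0.2199 by edgeR), and the counts were 3164, 1761, 2009 and 4108 in WT and 2767, 1313, 1965 and 2395 in Dp1Tyb. The groups overlapped with that scaling, and WT replicate 4 was the highest library with either scaling. Without WT replicate 4 the spike-in value was -0.13, and over the libraries left out in turn it ranged from -0.55 to -0.13.

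Fth1 encodes the ferritin heavy chain, the ferroxidase subunit of the iron storage shell. It lies at chr19:9980598-9985098 on the plus strand and was the most abundant gene of the circuit. Normalised counts were 15370.45, 9780.03, 13371 and 12442 in WT and 12885, 9322, 10010.4 and 9441 in Dp1Tyb. In Dp1Tyb 2 of 4 libraries were below every WT library, and replicate 1 stood above the other 3. The means were 12741 ± 2321 and 10415 ± 1674 (SD, n = 4), with a log2 fold change of -0.29 (SE 0.16, 95% interval -0.65 to 0.07) and an unadjusted p of 0.1013. With spike-in scaling the estimate was -0.18 (SE 0.32), and it was 0.044 without WT replicate 1 and 0.02 without Dp1Tyb replicate 2. Fth1 has processed copies in the genome, and reads that aligned to several places were discarded, so its counts may be too low in both groups.

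Macrophages break down heme and recycle iron, and their markers were measured beside these genes. All 8 macrophage markers were lower in Dp1Tyb. With relative scaling 6 of 8 had an unadjusted p under 0.05, beside 4.25% of all tested genes, and 2 had all Dp1Tyb libraries below all WT libraries, beside 1.52%. With spike-in scaling 1 of 8 had such a p, beside 1.17%, and 1 had separate groups, beside 0.14%. The list was chosen with earlier results of these data known, and its genes are not separate observations. These counts are therefore a description and not a test of the list. Their median log2 fold change was -0.62 with relative and -0.49 with spike-in scaling. Ptprc, which encodes the leukocyte antigen CD45, had a mean of 301 ± 13.7 in WT and 165 ± 11.2 in Dp1Tyb (log2 fold change -0.87, SE 0.12), and by edgeR its adjusted p was 0.08447. DESeq2 called it with an adjusted p of 2.285e-07, and over all alternatives the adjusted p reached 0.6107. Cd14, a receptor for lipopolysaccharide, had a log2 fold change of -0.72 (SE 0.22), and Csf1r, the receptor of macrophage colony-stimulating factor, of -0.60 (SE 0.20). None of the 8 was at 0 in all libraries, and edgeR called none.

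The summed level of the 8 macrophage markers was 373, 271, 325 and 291 CPM in WT and 303, 208, 194 and 151 in Dp1Tyb. As for Hmox1 and Fth1, WT replicate 2 was the lowest WT library and Dp1Tyb replicate 1 the highest Dp1Tyb library. WT replicate 4, the highest library for Hmox1, was not the highest for the markers. In bulk RNA, fewer cells of a type and less RNA per cell cannot be told apart. The part of these cells in the values of Hmox1 and Fth1 was not tested.

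**Figure D3:**
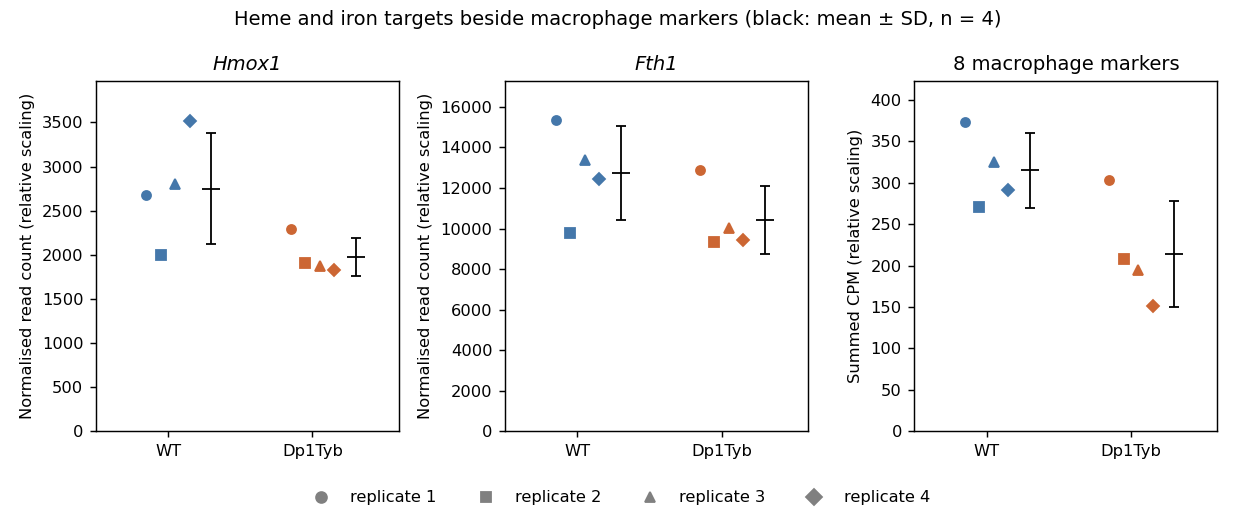
Relative normalised counts of Hmox1 and of Fth1 and the summed CPM of 8 macrophage markers (vertical axes, from 0) in the 4 WT (blue) and 4 Dp1Tyb (orange) libraries, with a marker shape for each replicate number and black bars for mean ± SD. In all 3 panels WT replicate 2 is the lowest WT library and Dp1Tyb replicate 1 the highest Dp1Tyb library. WT replicate 4 is the highest library for Hmox1 but not for Fth1 or the markers. The part of macrophages in the values of Hmox1 and Fth1 was not tested.

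For the targets that make glutathione, the 95% intervals of the difference included 0. Gclc encodes the catalytic and Gclm the modifier subunit of glutamate-cysteine ligase, the rate-limiting enzyme of glutathione synthesis. Gclc (chr9:77754535-77794485, plus strand) had 593, 1051, 1246 and 1593 counts in WT and 693, 911, 979.5 and 1117 in Dp1Tyb. All Dp1Tyb values lay inside the wide WT range and below the WT mean. Gclc had a log2 fold change of -0.28 (SE 0.27, 95% interval -0.87 to 0.31, unadjusted p = 0.3201 by edgeR), and -0.15 (SE 0.32) with spike-in scaling. With relative scaling it was -0.06 without WT replicate 4 and -0.49 without WT replicate 1.

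Gclm (chr3:122245557-122270732, plus strand) had 558, 1017, 752 and 856 counts in WT and 308, 913, 766 and 666 in Dp1Tyb. Dp1Tyb replicate 1 was the lowest of all libraries and the other 3 were inside the WT range. The log2 fold change was -0.26 (SE 0.30, 95% interval -0.93 to 0.40, unadjusted p = 0.3976 by edgeR). It was -0.03 without Dp1Tyb replicate 1 and -0.46 without Dp1Tyb replicate 2. Gclm shares 296 bases of exon with the antisense gene Gm17494, which had a mean count of 49.1, and 244 bases with the pseudogene Gm6061 on the same strand, which was not analysed here.

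For the targets that reduce thiols and quinones the 95% intervals of the difference included 0 under both scalings. Txnrd1, the cytosolic thioredoxin reductase (chr10:82833951-82897712, plus strand), had 3669, 6427, 5318 and 6747 counts in WT and 4873, 6146, 5590.2 and 6455 in Dp1Tyb. The Dp1Tyb values were inside the WT range, in which replicate 1 was low. The log2 fold change was 0.06 (SE 0.18, 95% interval -0.35 to 0.47), and 0.17 (SE 0.32) with spike-in scaling.

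Srxn1, sulfiredoxin, which repairs overoxidised peroxiredoxins and whose window is printed above (chr2:152105516-152111376, plus strand), had 1253, 1512, 1744 and 1764 counts in WT and 1804, 1514, 1489.9 and 1861 in Dp1Tyb. Dp1Tyb replicates 1 and 4 were above every WT library and the others were inside the WT range. Srxn1 had a log2 fold change of 0.09 (SE 0.13, 95% interval -0.21 to 0.39), and of 0.24 (SE 0.32) with spike-in scaling.

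Nqo1, the quinone reductase that is often used as a readout of Nrf2 (chr8:107388225-107403206, minus strand), had 253.5, 330.3, 256 and 326 counts in WT and 196, 360.4, 318 and 291 in Dp1Tyb. The Dp1Tyb libraries spread on both sides of the WT range. The means were 292 ± 42.5 and 291 ± 69.6 (SD, n = 4), and the log2 fold change was -0.0031 (SE 0.19, 95% interval -0.44 to 0.43). With spike-in scaling it was 0.06 (SE 0.35), of the opposite sign.

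Levels of the genes were compared per length, as RPKM, counts scaled to library size and to the length of the exons, with relative scaling. In WT the order was Fth1 at 174 ± 31.8, Hmox1 at 74.6 ± 17.0, Txnrd1 at 37.1 ± 9.3, Nfe2l2 at 32.7 ± 3.3, Srxn1 at 26.4 ± 4.0 and Bach1 at 21.1 ± 2.4 (SD, n = 4). Gclc followed at 14.1 ± 5.3, Nqo1 at 8.92 ± 1.30, Gclm at 6.01 ± 1.45 and Keap1 at 5.15 ± 0.99. Among neighbours in this order, the ranges of the libraries were separate only between Fth1 and Hmox1, Hmox1 and Txnrd1, and Nqo1 and Gclm. In Dp1Tyb, Bach1 was at 30.8 ± 2.1 and stood before Srxn1 at 28.1 ± 3.2, with overlapping ranges, and Keap1 at 5.31 ± 0.53 stood before Gclm at 5.01 ± 1.94.

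Ratios of 2 genes within a library do not depend on the scaling, and 5 were compared by a two-sided exact permutation test whose smallest possible p is 0.0286. The ratio of Bach1 to Nfe2l2 counts, the repressor against the activator, was 0.909, 1.23, 1.08 and 1.01 in WT and 1.20, 1.31, 1.52 and 1.41 in Dp1Tyb. Dp1Tyb replicate 1 fell below WT replicate 2, and the other 3 were above every WT library. The log2 ratio was 0.07 ± 0.18 and 0.44 ± 0.15 (SD, n = 4), a difference of 0.37 with an exact p of 0.0571 and an adjusted p of 0.0952 over the 5 ratios by Benjamini-Hochberg.

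Hmox1 was set against Hmox2, the constitutive heme oxygenase. The ratio of counts was 5.83, 4.40, 6.19 and 7.33 in WT and 4.41, 3.39, 3.60 and 3.95 in Dp1Tyb. Dp1Tyb replicate 1 was level with WT replicate 2, and the other 3 were below every WT library. The log2 difference was -0.61, a ratio of 0.654, with an exact p of 0.0571 and an adjusted p of 0.0952.

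The ratio of Fth1 to Ftl1, the heavy and the light chain of ferritin, was 0.696, 0.694, 0.761 and 0.681 in WT and 0.543, 0.569, 0.653 and 0.537 in Dp1Tyb. It was the ratio in which every Dp1Tyb library was below every WT library. The log2 ratio was -0.50 ± 0.07 and -0.80 ± 0.13 (SD, n = 4), a difference of -0.30 between the group means, with an exact p of 0.0286, the smallest possible, and an adjusted p of 0.0952. The ratio of Keap1 to Nfe2l2 differed by -0.13 on the log2 scale (exact p = 0.6286, adjusted p = 0.7143) and that of Gclm to Gclc by -0.13 (exact p = 0.7143, adjusted p = 0.7143). None of the 5 ratios passed the threshold after adjustment. With 0.0286 as the smallest possible p, no ratio could pass it by itself, so this outcome says little.

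**Figure D4:**
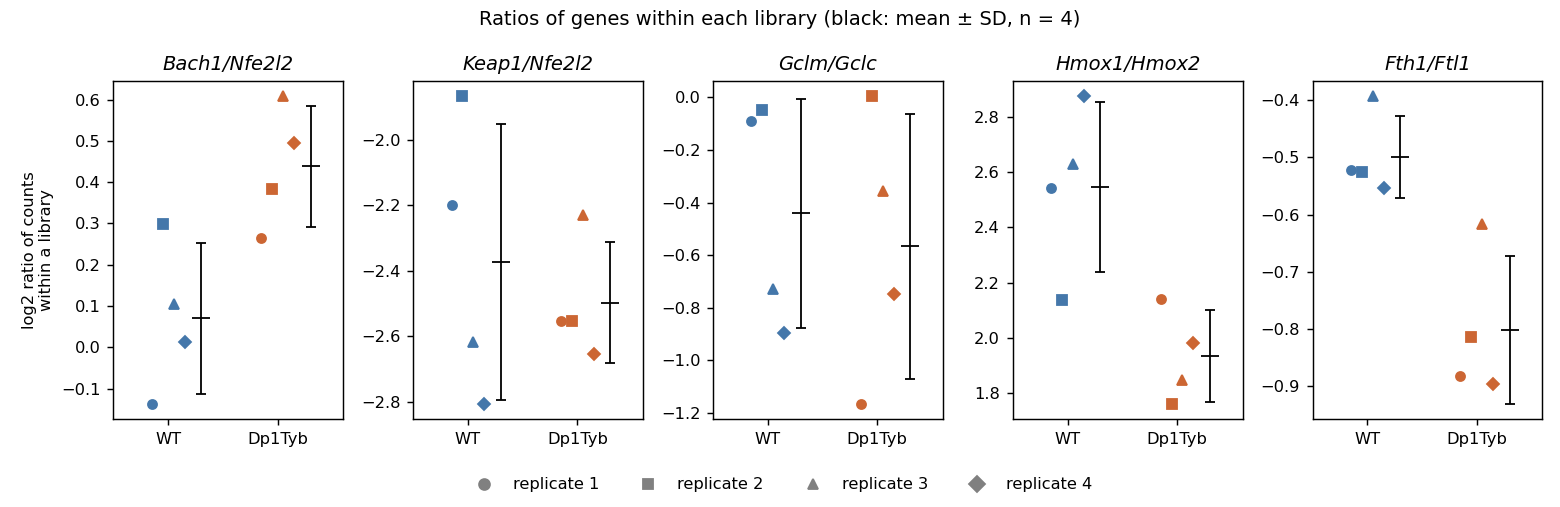
Log2 ratio of counts of 5 pairs of genes within each library (vertical axes, which differ between panels and do not start at 0) in the 4 WT (blue) and 4 Dp1Tyb (orange) libraries, with a marker shape for each replicate number and black bars for mean ± SD. Fth1 to Ftl1 is the pair in which every Dp1Tyb library lies below every WT library.

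The rest of the pathway was described through lists of genes. Of the small Maf partners of Bach1 and Nrf2 and the relatives of both, 6 genes were tested. Of these 3 were higher and 3 lower in Dp1Tyb, and their median log2 fold change was -0.02 with relative scaling. Nfe2l1, the related activator Nrf1, had a log2 fold change of 0.14 (SE 0.11), Nfe2l3 of -0.34 (SE 0.31) and the small Maf gene Mafg of -0.09 (SE 0.10). Of the 8 genes of the Keap1 ligase and of Nrf2 turnover, 4 were higher and 4 lower, with a median of 0.02. Among them were Pgam5, a mitochondrial phosphatase that binds Keap1, at 0.21 (SE 0.12), Sqstm1, the autophagy receptor p62, at 0.19 (SE 0.13), and Rbx1, the RING subunit of the ligase, at 0.10 (SE 0.10). Nfe2l3 was at -0.07 without WT replicate 1. With spike-in scaling the split was 4 higher and 2 lower (median 0.11) for the partners and relatives. For the Keap1 list it was 8 higher and 0 lower (median 0.12), beside the median of 0.11 over all genes. No gene of either list had an unadjusted p under 0.05, and none was called by edgeR, with either scaling.

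Of 19 tested other Nrf2 targets, 14 were higher and 5 lower, none with an unadjusted p under 0.05, and the median log2 fold change was 0.04, beside 0.0045 over all genes. With spike-in scaling 16 were higher and 3 lower, with a median of 0.16 beside 0.11. G6pdx, the first enzyme of the pentose phosphate pathway, which supplies NADPH, had a log2 fold change of 0.23 (SE 0.11, unadjusted p = 0.07044 by edgeR), and Tkt, transketolase of the same pathway, of 0.20 (SE 0.12). Prdx1, a peroxiredoxin, had a value of 0.16 (SE 0.13), and of 0.02 without Dp1Tyb replicate 2. Slc7a11, the cystine transporter, was at -0.06 (SE 0.35), with means of 365 and 352 counts.

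Of 15 tested genes of heme synthesis and turnover, 8 were higher and 7 lower, with a median log2 fold change of 0.03. Hebp1, a heme-binding protein, had a value of 0.34 (SE 0.16, unadjusted p = 0.05849 by edgeR), Uros, an enzyme of heme synthesis, of 0.28 (SE 0.19), and Hmox2 of 0.16 (SE 0.10). Alas1, the rate-limiting enzyme of heme synthesis outside erythroid cells, was at -0.01 (SE 0.11). Of 9 iron genes, 6 were higher and 3 lower, with a median of 0.03. Ncoa4, the receptor that delivers ferritin for degradation, was at 0.17 (SE 0.12), Aco1, an iron regulatory protein, at 0.12 (SE 0.08), and Steap3, a ferrireductase, at -0.21 (SE 0.16). Ftl1 was at 0.02 (SE 0.18), and Tfrc, the transferrin receptor, at 0.17 (SE 0.20). With spike-in scaling 11 heme genes were higher and 4 lower (median 0.10), and 7 iron genes were higher and 2 lower (median 0.18). No gene of either list had an unadjusted p under 0.05 or was called by edgeR with either scaling.

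**Figure D5:**
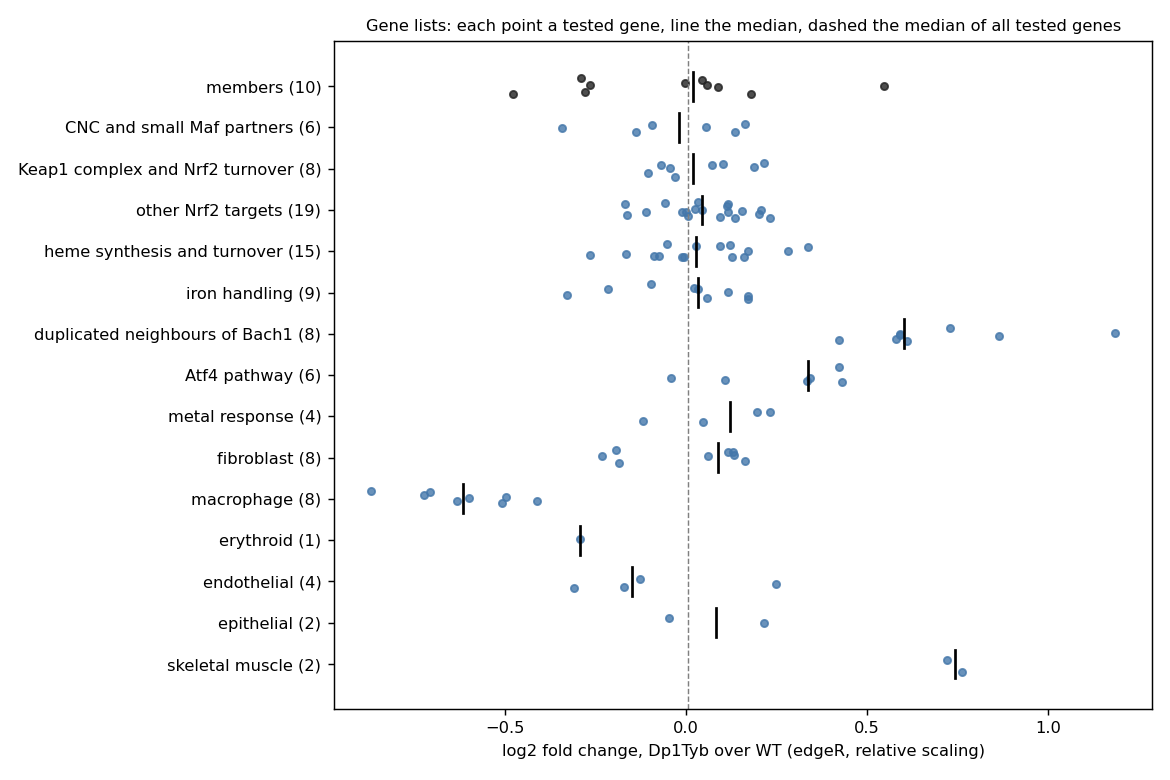
Log2 fold change of each tested gene (points) with relative scaling, Dp1Tyb against WT, for the 10 genes of the circuit (first line, members) and each list, with the number of tested genes in brackets, a black line at the median of the list and a dashed line at the median of all tested genes. The duplicated neighbours of Bach1 lie above 0 and the macrophage markers below 0, and the lists of the pathway have medians of -0.02 to 0.04.

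Genes of the Atf4 stress response, which shares targets with Nrf2, and metal response genes were listed too, since other inducers act on Hmox1. Of 6 Atf4 genes 5 were higher, with a median log2 fold change of 0.34 and no unadjusted p under 0.05, and with spike-in scaling 6 of 6 were higher, with a median of 0.40. Chac1, which degrades glutathione, was at 0.42 (SE 0.26), Asns, asparagine synthetase, at 0.43 (SE 0.39) and Ddit3 at 0.34 (SE 0.24). With relative scaling Asns was at 0.06 without Dp1Tyb replicate 2, and Ddit3 was at 0.08 without Dp1Tyb replicate 1. Over the libraries left out in turn Asns reached 0.85 and Ddit3 0.46. Of 4 metal genes 3 were higher, with a median of 0.12, and the metallothioneins Mt2 and Mt1 were at 0.23 (SE 0.24) and 0.20 (SE 0.26). With spike-in scaling 3 were higher too, with a median of 0.27. With relative scaling Mt2 was at 0.03 without WT replicate 2, and it reached 0.35 over the libraries left out in turn. Slc30a1, a zinc exporter, was at -0.12 (SE 0.15).

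Among the fibroblast markers 5 of 8 were higher, with a median log2 fold change of 0.09, and the named ones were Pdgfra at -0.19 (SE 0.15), Dcn at -0.19 (SE 0.15) and Pdgfrb at 0.13 (SE 0.14). Summed levels of other markers were taken over the listed genes in the count table, tested or not. These sums were 31.3 to 78.0 CPM over the 8 libraries for endothelial, 3.07 to 14.7 for epithelial and 2.34 to 7.40 for erythroid genes. For the muscle genes they were 10.1, 25.4, 8.75 and 6.95 in WT and 3.99, 33.6, 24.6 and 23.0 in Dp1Tyb. Dp1Tyb replicate 1 had the highest endothelial and the lowest epithelial and muscle sums of all 8 libraries, and the lowest fibroblast sum of the Dp1Tyb group. Without Dp1Tyb replicate 1 the log2 fold change of Bach1 was 0.60 and that of Hmox1 was -0.56. Of the 8 erythroid markers 1, Alas2, was tested, at -0.29 (SE 0.30). Of the endothelial genes Cdh5 was at -0.31 (SE 0.38), Kdr at 0.25 (SE 0.33) and Tek at -0.17 (SE 0.34), and of the epithelial genes Krt18 was at 0.21 (SE 0.54) and Krt8 at -0.05 (SE 0.48). The muscle genes Actc1 and Des were at 0.76 (SE 0.43) and 0.72 (SE 0.63). With spike-in scaling Des was at 0.78 (SE 0.35) with an unadjusted p of 0.02585 by edgeR, and Actc1 was at 0.80 (SE 0.48). Of all genes, 1.17% had an unadjusted p under 0.05 with that scaling. When 1 library was left out, Des ranged from 0.54 to 1.36 and Actc1 from 0.38 to 1.09. Over the alternatives, DESeq2 among them, the unadjusted p of Des reached 0.2571.

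Genes whose profile over the 8 libraries was most like that of Bach1, or of Hmox1, were found by the root mean square difference of their log2 values, each centred on its own mean, among 10961 genes. Nearest to Bach1 were Cbr3 at 0.06, Gabpa at 0.08, Eva1a at 0.09, Son at 0.10 and Usp16 at 0.10, against a median of 0.35 over all these genes. Of the 5, 4 are in the duplicated region and Eva1a is on chromosome 6. Nearest to Hmox1 were Map3k5 at 0.14, Ampd3 at 0.16, Mtss1 at 0.16, Ptpn4 at 0.17 and Cadm1 at 0.17, against a median of 0.39. None of these 5 is duplicated. The likeness is a description over 8 libraries and includes the difference between genotypes.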

How the data were processed

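RNA of the 8 MEF libraries was sequenced by the authors as stranded, poly(A)-selected paired-end reads. Per the labels and methods, reads were trimmed with Trim Galore, aligned with TopHat2 2.0.12 to GRCm38 and the spike-ins, reads with several alignments were discarded, and counts per gene were made with htseq-count. The annotation release and strand setting are not given in the sources used here. The deposited raw counts were used. The deposited normalised counts and the authors' DESeq2 comparison, with fold changes and p-values, were not used. Every gene in the table had at least 15 counts over the libraries.

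Counts were tested with edgeR 4.0.16 (quasi-likelihood, filterByExpr, R 4.3.3), with TMM factors over the endogenous genes (relative scaling) or median-of-ratios factors over 63 spike-ins. P-values were adjusted by Benjamini-Hochberg over 16470 genes, with a threshold of 0.05. SE is the absolute log2 fold change over the square root of F. RPKM uses the exon union of GENCODE M21, in which 19318 of 19493 identifiers were matched. Ratios used a pseudocount of 0.5. DESeq2 1.42.0 was an alternative, as were other scalings, filters, replicate terms and leaving out each library. The tests were first tested on simulated data. Libraries of a genotype differed beyond counting noise, and none was a copy of another. Named genes were all 10 genes of the circuit, the duplicated neighbours, the 3 with the lowest unadjusted p in each other list, and the 5 nearest profiles to Bach1 and Hmox1. Alas1, Slc7a11, Tfrc and Ftl1 were named after their values were seen. Genes and lists were chosen with earlier results of these data known. Nfe2, Gpx2 and Abcb6 were not analysed here. The untested cell type markers entered only the summed levels, where the count table held them.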

Additional observations from a re-analysis of the deposited data

Results flagged for a closer look

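In 50 groups of 4 values, the gap of the highest or the lowest library to its nearest neighbour was compared with the range of the group, and a gap above Dixon's critical value was listed, which chance gives for about 5% of such groups. For Hmox1 with relative scaling, Dp1Tyb replicate 1 had 2294.85 normalised counts and the other 3 had 1825.11 to 1902.89, a gap of 0.834 of the range. The same library had the highest summed macrophage and endothelial markers and the lowest fibroblast, epithelial and muscle markers of the Dp1Tyb group. For Keap1 with spike-in scaling, Dp1Tyb replicate 2 had 367.99 counts and the others 609.75 to 621.24, a gap of 0.955. That library had the least RNA per spike-in, 0.690 of the geometric mean.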

How the results depend on the processing

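Over 80 results and 1023 alternative values, 966 kept their direction and their side of the threshold, or their size. DESeq2 with relative scaling brought 9 named genes past the threshold, Bach1, Rwdd2b, Ltn1, N6amt1, Cct8, Ptprc, Cbr3, Gabpa and Son. The genes of the circuit had at least 242 counts in every library, while their counts differed between libraries of a genotype beyond counting noise. With relative scaling the number of called genes was 4, and it was 53 with DESeq2, 2 with median-of-ratios factors in edgeR, 2 without the filter, 7 with the replicate number as a block and 1 when any 1 of the 8 libraries was left out. With spike-in scaling it was 2, and it was 9 with the replicate block and 2 to 8 when a library was left out (8 without Dp1Tyb replicate 2, 6 without WT replicate 1 or Dp1Tyb replicate 4, 4 without Dp1Tyb replicate 1). The cause was not tested. Replicate numbers mark no shared litter in the labels. Same-numbered libraries deviated together with correlations of 0.37, 0.52, 0.03 and 0.33, WT replicate 3 was most like Dp1Tyb replicate 4 (0.32), and so the numbers were not taken as pairs. With the replicate block and relative scaling no gene of the circuit was called by edgeR, and Fth1 had an unadjusted p of 0.02024 (adjusted p = 0.4349) beside 0.1013 without the block, so that 3 of the 10 genes rather than 2 had an unadjusted p under 0.05, while the number over all 16470 genes went from 700 to 1599 (Dp1Tyb against WT, all genes, relative scaling). The difference of Bach1 against a fold change of 1.5 was 0.085 with spike-in scaling, and with that scaling 0.068 with the replicate block and -0.048 to 0.247 when a library was left out. It was -0.037 with relative scaling. With that scaling the log2 fold change of Bach1 was 0.47 to 0.60 when a library was left out, on both sides of 0.585, the log2 of 1.5. Leaving out 1 library turned the log2 fold changes that follow, all short of the threshold. For the circuit with spike-in scaling the ranges were -0.019 to 0.31 for Keap1, -0.11 to 0.22 for Nqo1 and -0.35 to 0.0047 for Gclm. They were -0.39 to 0.24 for Gclc, -0.019 to 0.42 for Txnrd1 and -0.37 to 0.044 for Fth1. With relative scaling they were -0.044 to 0.16 for Keap1, -0.12 to 0.15 for Nqo1, -0.10 to 0.17 for Txnrd1, -0.0085 to 0.15 for Srxn1, -0.20 to 0.0044 for Slc30a1, -0.0046 to 0.32 for Mt1, -0.14 to 0.48 for Kdr, -0.43 to 0.11 for Tek, -0.062 to 0.66 for Krt18, -0.28 to 0.44 for Krt8, -0.32 to 0.19 for Slc7a11, -0.06 to 0.29 for Tfrc, -0.13 to 0.13 for Ftl1 and -0.07 to 0.04 for Alas1. The log2 ratio difference ranged from -0.27 to 0.044 for Keap1 to Nfe2l2 and from -0.32 to 0.075 for Gclm to Gclc. Genes of the lists turned with spike-in scaling too, among them Nfe2l3 at -0.54 to 0.14, Mafg at -0.12 to 0.24 and Steap3 at -0.24 to 0.16. Some other log2 fold changes printed here kept their sign when 1 library was left out but moved by over 1.5 times. With spike-in scaling, and beside those given with their results, these were Nfe2l2 at 0.17 to 0.43 and Srxn1 at 0.064 to 0.44. With relative scaling, and beside those given with their results, they were Nfe2l2 at 0.12 to 0.23, Fth1 at -0.41 to -0.19, Nfe2l1 at 0.082 to 0.20, Mafg at -0.14 to -0.036, Sqstm1 at 0.10 to 0.25, Rbx1 at 0.044 to 0.15, G6pdx at 0.15 to 0.30, Uros at 0.11 to 0.36, Ncoa4 at 0.11 to 0.23, Steap3 at -0.32 to -0.091, Map3k7cl at 0.29 to 1.05, Chac1 at 0.27 to 0.61, Pdgfra at -0.27 to -0.044, Dcn at -0.32 to -0.10, Pdgfrb at 0.032 to 0.23, Alas2 at -0.44 to -0.065, Cdh5 at -0.58 to -0.17, Actc1 at 0.49 to 1.08, Des at 0.40 to 1.41 and Ptpn4 at -0.28 to -0.11.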
